A study of Mus musculus with 18 samples.

Results

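The genes of DNA replication and nucleotide synthesis were examined in newly transcribed RNA of NIH-3T3 cells, an established line of mouse fibroblasts. Membership was set by gene symbol, with no measured value in the rule, although the list was drawn up with earlier results of these data known. It comprised 49 genes, of which 48 had a probe set with signal and a single annotated symbol, among 12121 genes measured in all. Chaf1a, the larger subunit of the chromatin assembly factor, was not represented and enters only the counts of promoter motifs. Of 107 probe sets annotated to the members, 97 passed the filter on low values, and each gene was represented by its brightest probe set.

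Cells received IFNγ, IFNα or mock, each with the translation inhibitor cycloheximide (CHX) or with its solvent DMSO, which gave 6 treatments with 3 biological replicates and 18 arrays. CHX or DMSO was added 15 min before 100 U/ml of IFN, IFN was present for 60 min, and 500 µM 4-thiouridine (4sU) labelled new transcripts during the last 30 min, so that CHX acted for 75 min in total. The treatments were IFNγ with CHX, IFNα with CHX, CHX alone, IFNγ, IFNα and mock, where the last had neither agent. All cells were of a single line, all received 4sU, and newly transcribed RNA was separated from older RNA before it was hybridized to the arrays. Less transcription in every cell and transcription in fewer cells cannot be told apart in such bulk samples. With a single labelling time of 30 min, changes in RNA synthesis cannot be told apart from changes in RNA processing or decay either. The labels do not say where in the cell cycle the cells were.

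Replication origins are licensed in G1, when the origin recognition complex (Orc1 to Orc6), Cdc6 and Cdt1 load the ring-shaped MCM helicase onto DNA. In S phase Cdc45 and the GINS complex join the ring and activate it, primase and polymerase α start each new strand, and polymerases δ and ε extend it on the sliding clamp PCNA. Deoxynucleotides come from ribonucleotide reductase, thymidylate synthase and thymidine kinase. Many of these genes carry sites for E2F factors in their promoters, and E2F factors are known to raise their transcription as cells approach S phase.

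The main question was how the members responded when translation was blocked, taken over the 3 IFN backgrounds (9 arrays with CHX against 9 without). Of the 48 members, 24 were lower with CHX and 3 were higher at an adjusted p under 0.01, and 21 were not called. Over all 12121 genes 22.8% were called lower and 14.0% higher, so the members' share of lower calls was above that of all genes and their share of higher calls (6.25%) below it. Among the 8939 genes with a mean level at or above that of the lowest member 29.3% were called lower. The median log2 change of the members was -0.43, against 0.002 over all genes and -0.12 over the 8939 genes. Within each of the 3 replicate numbers it was -0.35, -0.43 and -0.53 (SD 0.09, n = 3), though pairing by number was not established. The members lowered most were Ppat, Tyms, Chaf1b, Ung and Gins2, the 5 that were called and at least 2-fold lower, a share of 10.4% against 6.44% of all genes. Hence most falls were moderate, and the other 19 members called lower had changes of -0.97 to -0.42. Upper quartiles of the arrays were 115.6 to 133.2 with CHX and 131.9 to 142.2 without, while medians were 9.6 to 10.8, and the part of this scale difference in the result was examined only through alternative scalings. Under median centring 2003 genes were called lower and 2071 higher, in place of 2762 and 1697, and 22 members lower and 5 higher.

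**Figure D1:**
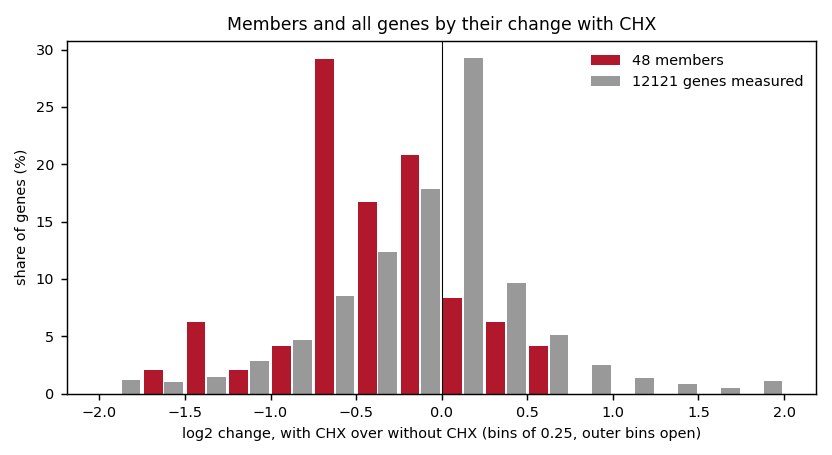
Share of genes (%) by log2 change with CHX over without CHX, in bins of 0.25, for the 48 members (red) and all 12121 genes (grey). The tallest bin of the members, with 29.2% of them, runs over changes of -0.75 to -0.5, where 8.49% of all genes lie.

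The 3 comparisons that make up this effect share no array. CHX alone against mock called 13 members lower and 0 higher (backgrounds 9.92% and 4.57%), IFNα with CHX against IFNα called 10 lower and 0 higher (backgrounds 8.42% and 6.88%), and IFNγ with CHX against IFNγ called 10 lower and 0 higher (backgrounds 12.7% and 6.12%). Read against these backgrounds, 27.1%, 20.8% and 20.8% of the members were called lower. The 3 counts were 4, 4 and 5 under median centring, and ranged from 7 to 15, from 3 to 12 and from 7 to 11 with an array left out. With only the arrays compared in the fit, the counts were 3, 1 and 3. Over all 12121 genes, CHX against mock called 1203 lower in the main fit. It called 726 genes lower under median centring, 398 with only the arrays compared and 808 to 1288 with an array left out. No count over all genes was made at these settings for the backgrounds with IFN. The members Chaf1b, Mcm2, Mcm7, Ppat, Rfc5 and Rpa1 were called lower in each of the 3 comparisons, which is 12.5% against 5.92% of all genes. A lower mean in all 3, with no regard to p, was found for 37 members (77.1%) against 37.2% of genes. All 9 arrays with CHX lay below all 9 without for 14 members (29.2%, background 10.3%), and the reverse held for 0 members (background 4.78%). Across the 48 members the changes correlated between CHX alone and CHX with IFNα at r = 0.948, between CHX alone and CHX with IFNγ at r = 0.851 and between the IFN backgrounds at r = 0.860, where r over all genes was 0.882, 0.830 and 0.857. These are descriptions across genes, which are not independent replicates. The sign was shared by 46, 47 and 47 of the 48 members (95.8%, 97.9% and 97.9%), against 75.0%, 82.9% and 74.3% of all genes.

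**Figure D2:**
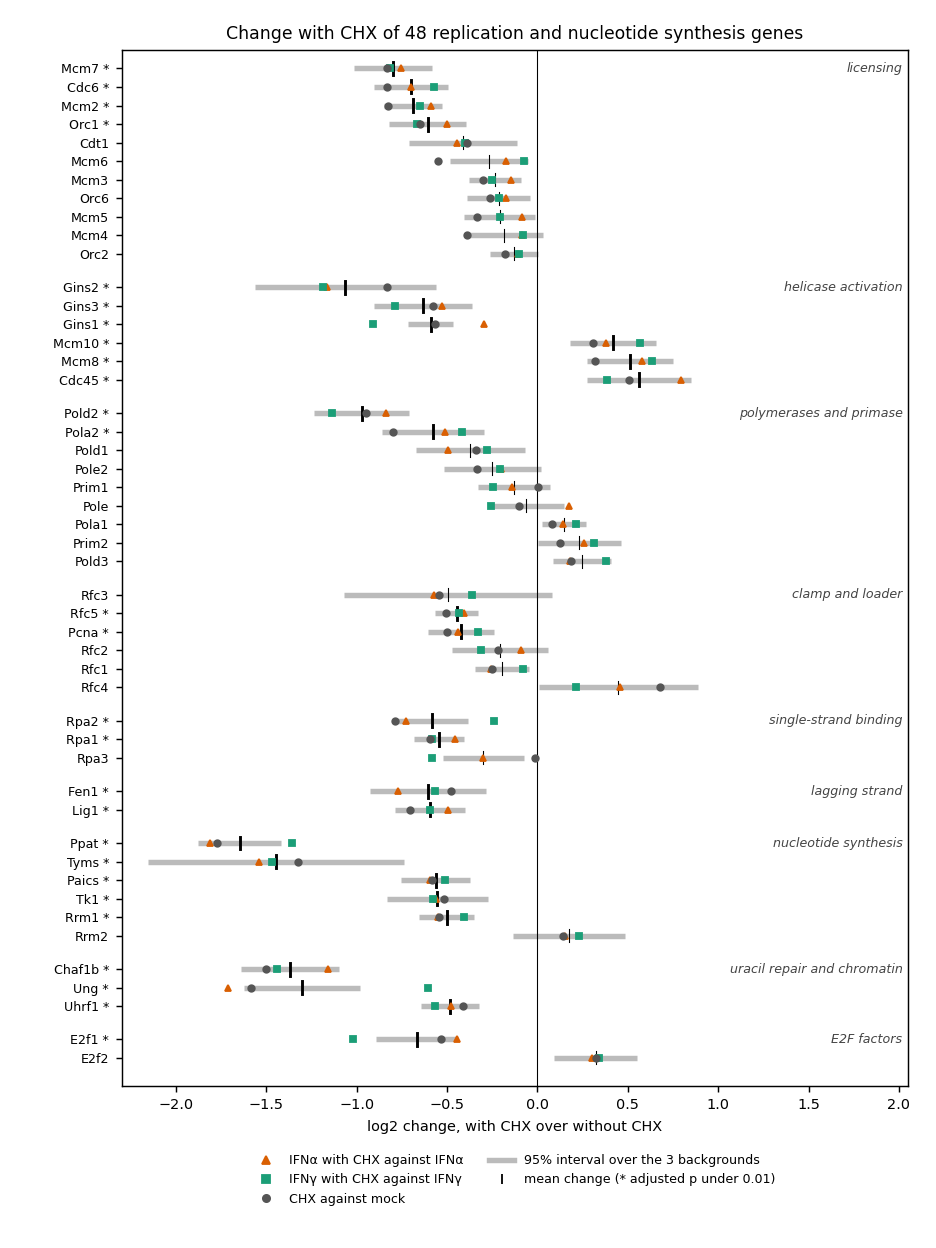
Log2 change with CHX over without CHX for each of the 48 members, ordered by role. Symbols give the change within each IFN background (3 arrays against 3), black ticks the mean over the 3 backgrounds, grey bars its 95% interval and asterisks an adjusted p under 0.01. Ppat, Tyms, Chaf1b and Ung lie furthest left, and Cdc45, Mcm8 and Mcm10 are the 3 members called higher.

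Promoter windows of 300 bases, from 250 bases before to 50 bases after the annotated start (RefSeq, build GRCm38.p6), were at hand for 43 members, while Mcm4, Gins1, Gins2, Prim2, Pole and Rfc2 had none. Some members had several annotated starts, with 51 windows in all, and a gene was counted where any of its windows held the motif. The E2F motif was searched on both strands as TTTGGCGC, TTTCCCGC, TTTGCCGC or TTTCGCGC. It stood in the windows of 18 of the 43 members (41.9%), against 2.6% of 27025 genes with a window and 4.85% of the 9821 genes that were also measured. The stretches below are shown because members with the motif fell on both sides of the threshold. Capitals mark the E2F motif on either strand, each stretch is read 5′ to 3′ along its gene, and 10 bases are given on each side where the window allows. The members called lower included these:
Mcm7, chr5:138172031-138172058, minus strand: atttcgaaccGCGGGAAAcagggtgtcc
Cdc6, chr11:98908003-98908030, plus strand: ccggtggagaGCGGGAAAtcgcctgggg
Gins3, chr8:95633508-95633535, plus strand: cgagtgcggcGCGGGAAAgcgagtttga
Orc1, chr4:108579417-108579444, plus strand: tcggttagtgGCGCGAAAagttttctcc
Lig1, chr7:13278842-13278869, plus strand: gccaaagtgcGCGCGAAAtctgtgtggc
Uhrf1, chr17:56304118-56304145, plus strand: ccgagtcgggTTTCGCGCgcccaggcgt
These members with the motif were not called:
Mcm5, chr8:75109346-75109373, plus strand: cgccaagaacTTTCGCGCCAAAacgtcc
Mcm6, chr1:128359798-128359825, minus strand: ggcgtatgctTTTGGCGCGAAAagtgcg
Mcm3, chr1:20820276-20820303, minus strand: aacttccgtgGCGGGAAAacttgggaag
Cdt1, chr8:122568037-122568064, plus strand: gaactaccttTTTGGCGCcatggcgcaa
Pole2, chr12:69228163-69228190, minus strand: gtcggcggtgGCGCCAAAtcgcgaacat
And this one was called higher with CHX:
Mcm8, chr2:132816170-132816190, plus strand: cgtcatagacGCGCCAAAaaa
Both Mcm5 and Mcm6 showed overlapping matches, so that the capitals run on. Of the 22 members called lower with a window, 7 (31.8%) held the motif, and of the 17 not called 10 (58.8%) did. Over all measured genes the shares were 5.12% of those called lower, 4.79% of those not called and 4.64% of those called higher. The motif was thus common among the members, and the difference between lowered and uncalled members was not tested.

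The E-box CACGTG, which Myc with Max and other factors bind, was found in 9 of the 43 members (20.9%) against 8.09% of all genes with a window and 11.4% of the measured ones. It stood in 6 of the 22 members called lower (27.3%), 1 of the 17 not called (Rfc1) and 1 of the 3 called higher (Mcm8), besides Chaf1a, and in 14.2%, 10.7% and 10.1% of all measured genes of these 3 classes. Among these members were Tyms, Rpa1 and Fen1, which were lower, and Rfc1, which was not called, shown with the E-box in capitals:
Tyms, chr5:30073671-30073696, minus strand: ccacttctgtCACGTGggggcggggt
Rpa1, chr11:75348436-75348461, minus strand: tcggaagagtCACGTGctctgcctgc
Fen1, chr19:10203924-10203949, minus strand: cctggcagatCACGTGacgagagcgc
Rfc1, chr5:65335860-65335885, minus strand: gcccttgcagCACGTGcgtgtactgc
As a palindrome it was counted once per position. The CCAAT box (CCAAT) was found in 62.8% of the members, against 41.1% of all genes with a window and 43.2% of the measured ones. The GC box (GGGCGG) was found in 79.1% of the members, against 38.2% of all genes and 66.7% of the measured ones. Of 25 E2F matches in the members, 1 overlapped a GC box.

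**Figure D3:**
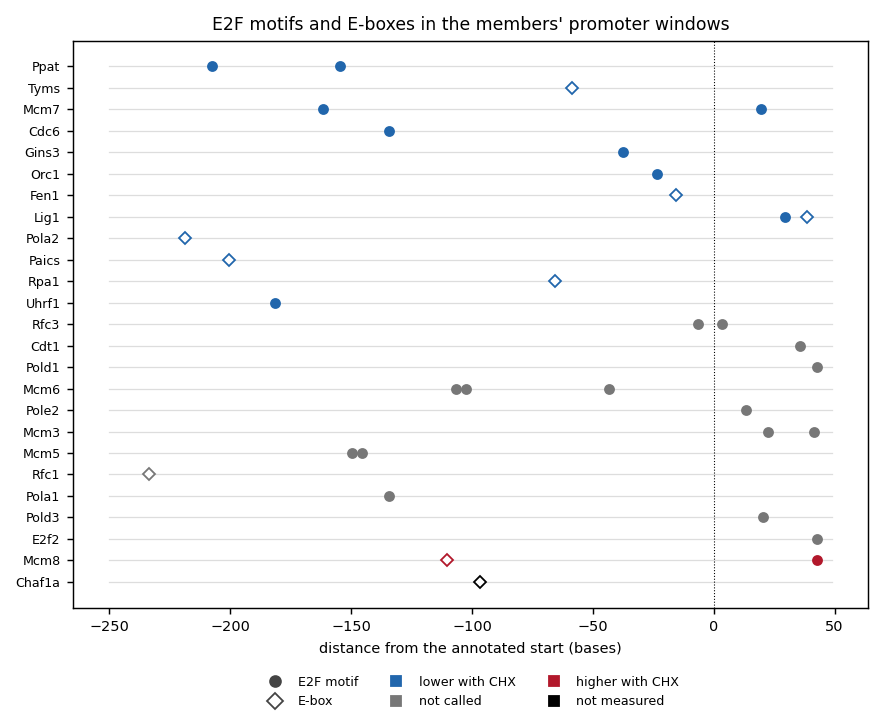
Position of E2F motifs (filled circles) and E-boxes (open diamonds) from 250 bases before to 50 bases after each annotated start, for the members that have either. All windows of a gene are drawn on its line, and the E2F motif and E-box of Lig1 lie in different windows. Colours give the call over the 3 IFN backgrounds, and members run from the largest fall at the top of each class. Both lowered and uncalled members hold the E2F motif, and 6 of the 9 members with an E-box were called lower.

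Of the 11 licensing genes, 4 were lower with CHX (36.4%, against 22.8% of all genes) and 0 higher, with a median log2 change of -0.27. Mcm7, a subunit of the helicase ring, lay at log2 intensities of 11.17 to 12 (median 11.70) on the 9 arrays with CHX, against 12.24 to 12.64 (median 12.53) on the 9 without. Its groups did not overlap, and the log2 change was -0.80 (SE 0.10, adjusted p = 1.72e-05). Its other 3 probe sets were lower as well, by 0.87 to 0.98 on the log2 scale. Mcm2, another subunit, lay at 8.51 to 9.10 (median 8.90) with CHX, against 9.42 to 9.80 (median 9.56) without, again with no overlap. The change of Mcm2 was -0.69 (SE 0.07, adjusted p = 4.39e-06). The other subunits of the same ring, Mcm3, Mcm4, Mcm5 and Mcm6, had changes of -0.23, -0.19, -0.21 and -0.27 and were not called. Their 95% intervals ran from -0.48 for Mcm6 at the lower end to 0.03 for Mcm4 at the upper end, while those of Mcm7 (-1.02 to -0.59) and Mcm2 (-0.85 to -0.53) lay wholly below -0.5. Differences between subunits had been seen beforehand and were not tested. The weaker probe sets of Mcm3, Mcm4 and Mcm6 included 3 with positive changes (0.35, 0.20 and 0.12), none of them called.

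Cdc6, which helps to load the ring, lay at 8.86 to 9.54 (median 9.20) with CHX, against 9.68 to 10.16 (median 9.91) without. The groups were apart, and the log2 change was -0.70 (SE 0.10, adjusted p = 3.65e-05). Orc1, the largest subunit of the origin recognition complex, lay at 7.85 to 8.56 (median 8.49) with CHX, against 8.65 to 9.31 (median 8.95) without. It was lowered by 0.61 (SE 0.10, adjusted p = 1.97e-04) without overlap, and a weaker probe set of Orc1 changed by -0.81 without a call. Cdt1, the partner of Cdc6 in loading, changed by -0.41 (adjusted p = 0.0281), and Orc2 and Orc6 by -0.13 and -0.22, none of them called, although weaker probe sets of Cdt1 (-0.64) and Orc2 (-0.65) were called.

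Genes of helicase activation moved in both directions, with 3 of 6 lower and 3 higher. Over all genes 22.8% were called lower and 14.0% higher. The GINS subunits fell: Gins2 had 4.34 to 5.96 (median 5.22) with CHX, against 5.61 to 6.88 (median 6.18) without, a change of -1.06 (SE 0.23, adjusted p = 0.00195), with overlap of single arrays. Gins3 lay at 6.14 to 6.72 (median 6.26) with CHX, against 6.67 to 7.42 (median 7.07) without, with a change of -0.63 (SE 0.13, adjusted p = 9.70e-04). Here the highest array with CHX just passed the lowest without. Gins1 lay at 6.88 to 7.67 (median 7.50) with CHX, against 7.70 to 8.13 (median 7.95) without, and was lowered by 0.59 (SE 0.06, adjusted p = 1.54e-06). A weaker probe set of Gins1 changed by 0.04 and was not called.

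In contrast, Cdc45, the partner of GINS at the active helicase, was higher with CHX at 7.27 to 8.11 (median 7.79), against 6.61 to 7.57 (median 7.21) without. The log2 change of Cdc45 was 0.56 (SE 0.14, adjusted p = 0.00370), and its other probe set was called at 0.43. Mcm10, which binds the activated helicase, lay at 8.43 to 9.16 (median 8.64) with CHX, against 8.08 to 8.58 (median 8.30) without, and Mcm8, a relative of the ring subunits known for its part in DNA repair, at 5.86 to 6.62 (median 6.25), against 5.26 to 5.91 (median 5.65). All these groups overlapped. The changes were 0.42 for Mcm10 (SE 0.11, adjusted p = 0.00753) and 0.51 for Mcm8 (SE 0.11, adjusted p = 0.00190). The call of Mcm10 was lost in 14 of 27 alternatives, and its other probe set changed by 0.10 without a call.

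**Figure D4:**
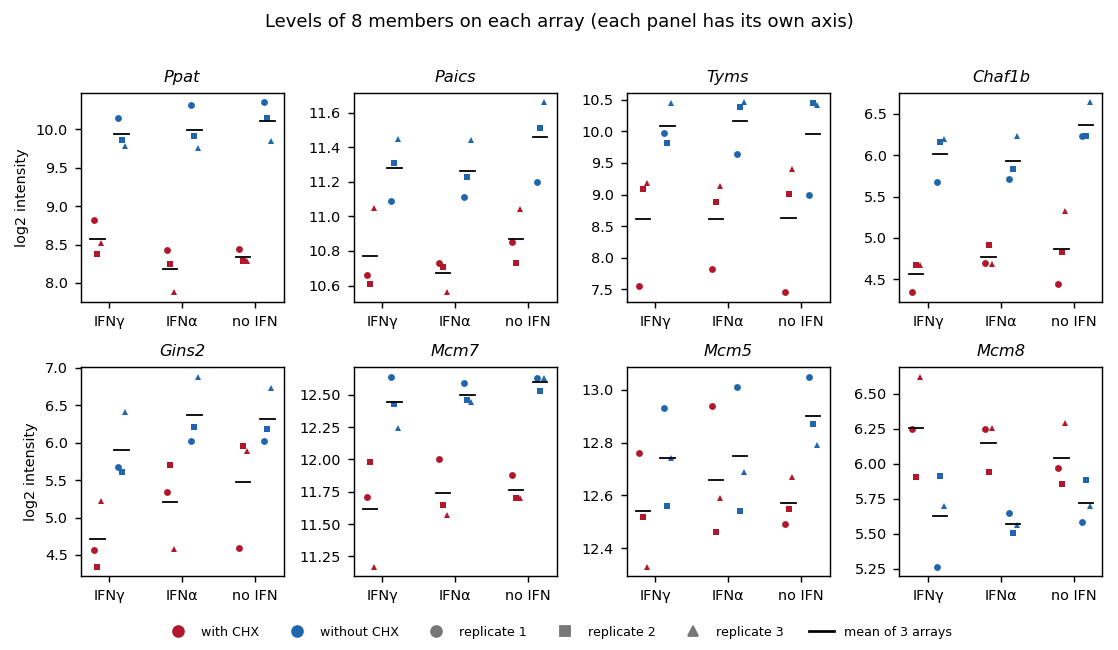
Log2 intensity of 8 members on each of the 18 arrays, with CHX (red) left of without CHX (blue) in each IFN background. Marker shapes give the replicate number and bars the mean of 3 arrays. Ppat, Paics, Chaf1b and Mcm7 with CHX lie below every array without CHX, while the groups of Mcm5 and Mcm8 overlap.

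Of 9 polymerase and primase genes, 2 were lower (22.2%, a share close to the 22.8% of all genes) and 0 higher. Pold2, an accessory subunit of polymerase δ, lay at 6.28 to 7.16 (median 6.76) with CHX, against 7.50 to 8.01 (median 7.73) without. The groups did not overlap, and the change was -0.97 (SE 0.12, adjusted p = 1.72e-05), or 51.0% of the level without CHX. Pola2, the accessory subunit of polymerase α, lay at 7.03 to 8.40 (median 7.83) with CHX, against 8.01 to 8.94 (median 8.42) without, and was lowered by 0.58 (SE 0.13, adjusted p = 0.00269). The catalytic subunits Pola1 (0.15), Pold1 (-0.37) and Pole (-0.06), the primase genes Prim1 (-0.13) and Prim2 (0.23) and the accessory subunits Pold3 (0.25) and Pole2 (-0.25) were not called. For Pold1, Prim1 and Prim2 a weaker probe set was called, at -0.60, -0.28 and 0.42, and a weaker one of Pole2 changed by 0.004 without a call.

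The clamp and its loader gave 2 lower (33.3%, against 22.8% of all genes) and 0 higher of 6. Pcna, the sliding clamp, lay at 12.37 to 13.02 (median 12.84) with CHX, against 13.08 to 13.36 (median 13.24) without, and was lowered by 0.42 (SE 0.08, adjusted p = 9.81e-04) with no overlap. Rfc5, a small subunit of the clamp loader, lay at 7.95 to 8.32 (median 8.12) with CHX, against 8.36 to 8.75 (median 8.55) without, with a change of -0.45 (SE 0.06, adjusted p = 1.51e-05). The other loader subunits, Rfc1, Rfc2, Rfc3 and Rfc4, changed by -0.20, -0.21, -0.50 and 0.45 without a call, of which Rfc3 and Rfc4 had the widest errors (SE 0.27 and 0.21).

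Both genes of lagging-strand processing were called lower, as were 22.8% of all genes. DNA ligase Lig1 lay at 8.17 to 8.78 (median 8.64) with CHX, against 8.95 to 9.45 (median 9.06) without, a change of -0.60 (SE 0.09, adjusted p = 9.47e-05). The flap endonuclease Fen1 lay at 9.46 to 10.51 (median 9.70) with CHX, against 10.21 to 10.72 (median 10.46) without, a change of -0.60 (SE 0.15, adjusted p = 0.00452), and its second probe set was called at -0.90. Its groups overlapped and its call was lost in 7 of 27 alternatives. Of the subunits of RPA, which coats single-stranded DNA, Rpa1 was lowered by 0.54 (SE 0.06) and Rpa2 by 0.58 (SE 0.09), while Rpa3 changed by -0.30 (SE 0.10, adjusted p = 0.0324). A weaker probe set of Rpa2 changed by -0.70 and was not called.

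Among the 6 genes of nucleotide synthesis 5 were lower (83.3%, against 22.8% of all genes). Ppat, which catalyses the committed step of purine synthesis, showed the largest fall of all members measured. On the IFNγ with CHX arrays Ppat had 8.82, 8.37 and 8.53, against 10.15, 9.86 and 9.79 on the IFNγ arrays. On the IFNα with CHX arrays it had 8.44, 8.25 and 7.88, against 10.32, 9.92 and 9.75 on the IFNα arrays. With CHX alone it had 8.44, 8.29 and 8.29, against 10.35, 10.14 and 9.84 in mock. The highest array with CHX thus lay below the lowest without, and Ppat reached 31.9% of the level without CHX (log2 change -1.65, SE 0.11, adjusted p = 2.86e-08). Its second probe set changed by -1.38. The 5 genes that most resembled Ppat over the 18 arrays, among 12120, were Trim35, Casp2, Dhx33, Gsr and Lhfpl2, with r of 0.977 to 0.979. All 5 were themselves lower with CHX, with log2 changes of -1.48 to -1.02, and r spans arrays with and without CHX.

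Paics, which carries out later steps of the same pathway, lies next to Ppat on the opposite strand of chromosome 5, and the annotated transcripts overlap by 277 bases at their 5′ ends. Paics lay at 10.56 to 11.05 (median 10.73) with CHX, against 11.09 to 11.66 (median 11.31) without. It was lowered by 0.56 (SE 0.09, adjusted p = 1.31e-04) with no overlap, and reached 67.7% of the level without CHX. The change of Ppat minus that of Paics was -1.08 on the log2 scale, a difference that was seen before and is given without a test. Another probe set of Paics changed by -0.31 and was not called. Paics ranked 1395 among 12120 genes in its likeness to Ppat (r = 0.793). Both promoter windows are shown because these neighbours differed in the size of the fall, with E2F motifs, E-boxes and CCAAT boxes in capitals:
Ppat, chr5:76951529-76951828, minus strand: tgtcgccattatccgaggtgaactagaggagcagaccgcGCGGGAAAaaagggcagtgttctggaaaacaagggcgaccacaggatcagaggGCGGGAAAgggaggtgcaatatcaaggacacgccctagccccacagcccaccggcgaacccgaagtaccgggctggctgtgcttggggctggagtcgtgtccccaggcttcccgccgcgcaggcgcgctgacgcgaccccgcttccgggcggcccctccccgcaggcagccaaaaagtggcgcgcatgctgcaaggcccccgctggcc
Paics, chr5:76951052-76951351, plus strand: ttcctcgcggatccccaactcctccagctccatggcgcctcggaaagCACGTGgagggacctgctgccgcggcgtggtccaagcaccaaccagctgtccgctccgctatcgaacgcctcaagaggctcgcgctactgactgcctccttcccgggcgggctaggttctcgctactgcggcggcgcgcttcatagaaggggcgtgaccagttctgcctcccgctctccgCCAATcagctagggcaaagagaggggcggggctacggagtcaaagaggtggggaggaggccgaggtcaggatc
The window of Ppat held E2F motifs and that of Paics an E-box and a CCAAT box.

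Tyms, thymidylate synthase, varied most among the members called lower. It lay at 7.45 to 9.41 (median 9.02) with CHX, against 8.99 to 10.46 (median 10.38) without, a change of -1.45 (SE 0.33, adjusted p = 0.00261). Replicate 1 was lowest in IFNγ with CHX (7.56, beside 9.09 and 9.19), IFNα with CHX (7.83, beside 8.89 and 9.14) and CHX alone (7.45, beside 9.02 and 9.41), as well as in IFNα (9.65, beside 10.38 and 10.46) and mock (8.99, beside 10.45 and 10.42). In IFNγ the 3 arrays had 9.97, 9.82 and 10.45. The error of Tyms was thus wide, although the mean was lower with CHX in each background. Its weaker probe sets changed by -0.61 and -0.31 and were not called. Rrm1, the large subunit of ribonucleotide reductase, was lowered by 0.50 (SE 0.07, adjusted p = 5.36e-05), whereas Rrm2, its small subunit, changed by 0.17 (95% interval -0.14 to 0.49, adjusted p = 0.335) and was not called. Weaker probe sets of Rrm1 changed by -0.84 and 0.05 and another of Rrm2 by -0.22, none of them called, so that the sign for Rrm2 differed between its probe sets. Tk1, the salvage kinase for thymidine, was lowered by 0.55 (SE 0.13, adjusted p = 0.00339).

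All 3 measured genes of uracil repair and chromatin were lower, against 22.8% of all genes. Chaf1b, a subunit of the chromatin assembly factor, lay at 4.34 to 5.33 (median 4.68) with CHX, against 5.68 to 6.64 (median 6.20) without. Its groups did not overlap, and it reached 38.8% of the level without CHX (log2 change -1.37, SE 0.13, adjusted p = 8.98e-07). Uhrf1, which binds hemimethylated DNA and brings in the maintenance methyltransferase, lay at 11.06 to 11.65 (median 11.49) with CHX, against 11.70 to 12.07 (median 11.87) without, a change of -0.48 (SE 0.08, adjusted p = 1.26e-04). Ung, the glycosylase that removes uracil from DNA, changed by -1.30 (SE 0.15, adjusted p = 7.51e-06) over the 3 backgrounds, and its single values are given with the IFN comparisons.

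Of the E2F factors E2f1 was called and E2f2 was not. E2f1 lay at 5.84 to 6.87 (median 6.44) with CHX, against 6.93 to 7.42 (median 7.12) without, and was lowered by 0.67 (SE 0.11, adjusted p = 1.52e-04) with no overlap. E2f2 lay at 4.30 to 5.07 (median 4.72) with CHX, against 4.30 to 4.41 (median 4.34) without, and its change of 0.32 was not called (adjusted p = 0.0256).

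Few members were called with IFN, as were few of all genes. IFNα against mock called 0 members (background 0.743%) and IFNγ against mock 0 (background 3.08%). In the presence of CHX, IFNα against CHX called 0 (background 1.31%) and IFNγ against CHX called 3 (6.25%, background 5.77%), a share close to that of all genes. With only the arrays compared in the fit, these 3 calls were lost. The changes of all members ran from -0.44 to 0.36 with IFNα, from -0.41 to 0.69 with IFNγ, from -0.27 to 0.26 with IFNα in CHX and from -0.77 to 1.67 with IFNγ in CHX. The comparisons within CHX share the CHX arrays and those without CHX the mock arrays.

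The 3 members called with IFNγ in CHX were Ung, Rpa2 and Gins1. Ung had 7.73, 8.48 and 7.58 in IFNγ with CHX and 6.02, 5.66 and 6.46 in IFNα with CHX, against 6.22, 6.15 and 6.42 with CHX alone. Without CHX it had 8.74, 8.73 and 8.14 with IFNγ and 8.15, 7.72 and 7.40 with IFNα, against 7.87, 7.90 and 7.78 in mock. All 3 arrays of IFNγ with CHX were above all 3 with CHX alone, and so were those of IFNγ above mock. The log2 change was 1.67 (SE 0.26, adjusted p = 6.52e-04) within CHX, or 3.17-fold, and 0.69 (SE 0.26, adjusted p = 0.263) without. The fall with CHX was -0.60 (adjusted p = 0.110) in IFNγ, against -1.58 (adjusted p = 6.37e-04) with no IFN. The difference between the IFNγ responses with and without CHX was 0.98 (SE 0.37, adjusted p = 0.473) and did not pass.

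Rpa2 had 8.74, 8.71 and 8.34 in IFNγ with CHX and 7.94, 7.72 and 7.17 in IFNα with CHX, against 7.75, 7.57 and 7.66 with CHX alone. Without CHX it had 8.89, 8.72 and 8.89 with IFNγ and 8.35, 8.33 and 8.33 with IFNα, against 8.61, 8.37 and 8.36 in mock. It was higher with IFNγ within CHX by 0.94 (SE 0.16, adjusted p = 0.00172), while the change without CHX was 0.39 (adjusted p = 0.364). Gins1 went the other way, with 6.88, 6.88 and 6.90 in IFNγ with CHX and 7.50, 7.67 and 7.67 in IFNα with CHX, against 7.34, 7.52 and 7.60 with CHX alone. Without CHX it had 7.70, 7.93 and 7.74 with IFNγ and 7.77, 7.96 and 8 with IFNα, against 7.95, 8.08 and 8.13 in mock. The change of Gins1 was -0.60 (SE 0.10, adjusted p = 0.00116) within CHX and -0.26 (adjusted p = 0.273) without. For both genes the groups within CHX did not overlap, and neither was called on a weaker probe set (0.94 for Rpa2 and -0.12 for Gins1). The interaction of CHX with IFNα called 0 members (background 0.297%) and that with IFNγ 0 (background 0.363%).

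**Figure D5:**
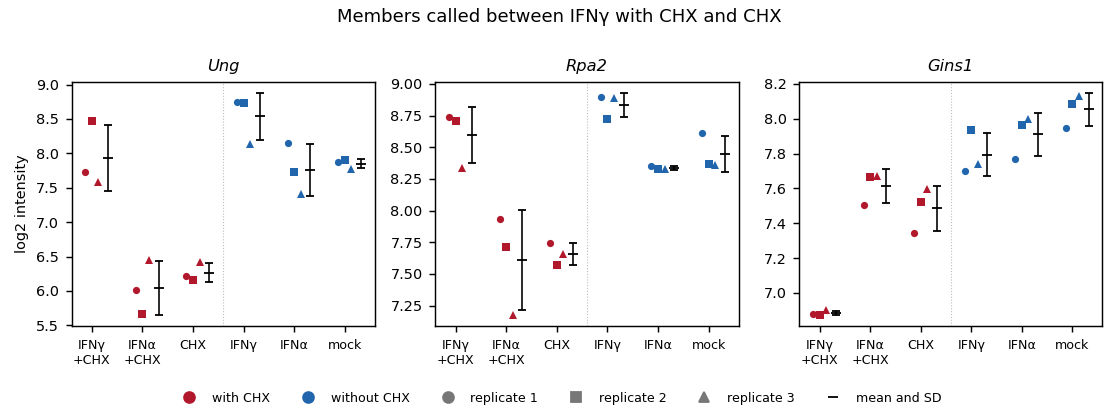
Log2 intensity of Ung, Rpa2 and Gins1 in the 6 treatments, with CHX (red) and without (blue). Points are single arrays, and bars give mean and SD of 3. In IFNγ with CHX, Ung and Rpa2 lie above and Gins1 below CHX alone.

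Other genes of the same pathways were counted beside the members for the effect of CHX over the 3 backgrounds. Of 38 other replication genes 36 were measured, 13 of them lower and 4 higher (median -0.26). The largest changes were those of Recql4, a helicase of replication initiation, at -1.45 (SE 0.08), Pold4, a small subunit of polymerase δ, at -1.03 (SE 0.16), the nuclease Dna2 at -0.99 (SE 0.11) and the exonuclease Exo1 at -0.79 (SE 0.09). Of 35 other nucleotide synthesis genes 30 were measured, 18 of them lower and 3 higher (median -0.55). They included Shmt2, the mitochondrial serine hydroxymethyltransferase, at -1.79 (SE 0.13), Aprt, which salvages adenine, at -1.41 (SE 0.11) and Impdh1, of guanine nucleotide synthesis, at -1.20 (SE 0.09), while Samhd1, which degrades deoxynucleotides, was higher at 1.10 (SE 0.16). Among 11 measured factors of the E2F, DP and pocket protein families and Myc, 4 were lower and 2 higher (36.4% and 18.2%). They included Tfdp2 at -1.05 (SE 0.10) and E2f8 at -0.71 (SE 0.14) against the pocket protein Rbl1 at 0.68 (SE 0.10). Genes of G2 and M phase gave 3 lower and 2 higher of 19 (15.8% and 10.5%, median 0.002). These are counts, and differences between the lists were not tested.

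The cell type was checked by its markers. All 12 fibroblast markers passed the filter, with a median mean level of 11.93, and their summed intensity was 64190 to 74920 with CHX, against 57560 to 65350 without. Single fibroblast markers went both ways, with 3 called lower (Pdgfrb at -0.78, Pdgfra at -0.61 and S100a4 at -0.19), 4 called higher (Postn at 0.65, Vim at 0.46, Fn1 at 0.35 and Col1a2 at 0.23) and a median log2 change of 0.01. Of 9 leukocyte markers 7 were on the array table and 2 passed, with sums of 178 to 317 with CHX, against 83.6 to 144 without, a difference led by Cd68 (log2 change 1.33). No endothelial marker passed, and the sums of 6 epithelial markers were 48.4 to 61.3 with CHX, against 44.3 to 50.2 without. The part of these differences in the members' changes was not tested. Arrays of a treatment correlated with each other at 0.959 to 0.995.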

How the data were processed

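Newly transcribed RNA was measured on 3 Affymetrix mouse genome arrays for each of 6 treatments. The authors computed a linear intensity per probe set and deposited it, with gc-RMA per the methods and Affymetrix Expression Console per the submitters' notes. Here log2 of the deposited intensity was fitted in limma 3.58.1 (R 4.3.3) in a single model of the 6 treatments, with 12 residual degrees of freedom. Of 45037 probe sets without controls (64 left out), the 27773 with the highest maximum (8.5 or more) were kept, a cutoff set to match the number the study retained, ties included, and p-values were adjusted by Benjamini-Hochberg over these for each comparison. A gene was called at an adjusted p under 0.01. It was represented by its single-symbol probe set with the highest mean, and other probe sets are named where sign or call differed for CHX over the 3 backgrounds. Values are given for the largest falls and rises, members called with IFN, and Ppat and Paics. The members and lists were chosen with earlier results of these data known. The fit was tested on simulated data with independent noise, which lacks the deviations that arrays of the same replicate number shared in part. The labels call the arrays of a treatment replicates, and p-values measure the spread between them. Signal over background and the number of arrays limit precision. Array files give no sequencing depth. Alternatives covered the added constant, filter, scaling, arrays in the fit, replicate number, spread model, probe set and each array left out.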

Additional observations from a re-analysis of the deposited data

How the results depend on the processing

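The 24 members called lower over the 3 IFN backgrounds numbered 22 to 25 under the other filters, constants, scalings and spread models and 23 to 26 with each array left out. Median centring moved the median of all genes by CHX to 0.117 and that of the members to -0.3196, which left the difference between them at -0.4370. It gave 5 members called higher, in place of 3 (2 to 4 with an array left out), and 2003 genes lower and 2071 higher, in place of 2762 and 1697. Quantile normalization gave 2471 and 1799. Under median centring 4 members were called lower in CHX against mock, 4 in IFNα with CHX against IFNα and 5 in IFNγ with CHX against IFNγ, in place of 13, 10 and 10, and with only the arrays compared the counts were 3, 1 and 3. Over all genes, CHX against mock called 726 lower under median centring and 398 with only the arrays compared, in place of 1203. With an array left out the counts of members ranged from 7 to 15, from 3 to 12 and from 7 to 11. The fewest in CHX against mock came without mock replicate 2 (7) or CHX replicates 2 and 3 (8 each), and in IFNα with CHX against IFNα without IFNα replicates 1 and 3 or IFNα with CHX replicate 3 (3 each), IFNα replicate 2 or IFNα with CHX replicate 2 (4 each) and IFNγ replicate 2 (6). Members called higher in these 2 IFN backgrounds ranged from 0 to 1 with an array left out, and quantile normalization and median centring called 1 (Mcm8) in IFNγ. With only the arrays compared, IFNγ with CHX against CHX called 0 members in place of 3. The cause of these changes was not tested, though fewer arrays entered the fits of the arrays compared. Replicate numbers shared deviations in part (r of -0.401 to 0.784 over 45 pairs, and 14 of 18 arrays closest to their own number), which does not establish pairing. With a replicate block 27 members were called lower and 4 higher over the 3 backgrounds, 17, 13 and 14 lower within mock, IFNα and IFNγ, and 1 higher in IFNα (Cdc45) and 1 in IFNγ (Mcm10). The calls over all genes rose as well, to 3277 lower (27.0%) and 2025 higher over the 3 backgrounds, in place of 2762 and 1697. In CHX against mock the block gave 1740 genes lower, in place of 1203. Directions reversed for Mcm4 over all its probe sets (0.00499) and for Pole under median centring (0.0537), neither called. They also reversed for Ung with IFNα against mock (-0.286 to 0.0846 with an array left out), Rpa2 with IFNα in CHX (-0.213 to 0.168), the interaction of Rpa2 with IFNα (-0.000432 under quantile normalization, -0.0260 under median centring, -0.0910 over all probe sets and -0.102 to 0.280 with an array left out) and that of Ung with IFNα (-0.334 to 0.0649). Signal over background limits members of low signal such as E2f2, whose mean log2 level was 4.51.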
